A study of Mus musculus with 6 samples.

Results

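The 10 genes described here are Tdrd9, Npy, Camkv, Mrc2, Capn11, Msrb3, 1700006J14Rik, 4922502D21Rik, Gm16026 and Gm16553. They were selected on deposited expression values, out of 38924 rows, as low in mock marrow and high in both leukemia libraries. All 10 are among the 10958 genes that reached 1 RPKM (reads per kilobase of gene, scaled to the total reads of the library) in at least 2 of the 6 libraries, but only 3 of them (Npy, 1700006J14Rik and Gm16553) would have done so without the leukemia libraries. Because mock and leukemia values chose these genes, their levels are given as a description, with no test. Messenger RNA was sequenced from marrow of C57BL/6 mice that had been transplanted with transduced bone marrow cells, after sorting for cells that were GFP+, Lin- (negative for lineage markers) and c-kit+. The leukemia group (n = 2 libraries) carried Evi1-GFP and was taken at 6 months after transplantation. The preleukemia group (n = 2) carried Evi1-GFP and was taken at 4 weeks, and the mock group (n = 2) carried GFP alone and was taken at 4 weeks. All groups shared the transduction, the transplantation and the sort, and no group with GFP alone at 6 months was analysed here, so that leukemia and the later time cannot be told apart. Nothing in the labels ties the 2 libraries of a group to different animals. The p-values given for other genes therefore measure only the spread between libraries, which may be technical.

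Evi1 is a zinc finger transcription factor made from the Mecom locus. It maintains blood stem cells, and in human acute myeloid leukemia its high expression goes with a poor outcome. Its first zinc finger domain binds a sequence related to GATA sites and its second an ETS-like sequence. The named coding genes among the 10 are known mainly from other tissues: Tdrd9 and Capn11 from the male germ line, Npy and Camkv from neurons, Mrc2 from fibroblasts and Msrb3 from the inner ear. Kit, the gene of the sort marker c-kit, was expressed in all 6 libraries. No unsorted library was analysed here, so its level cannot show the sort. Kit had 49.3 and 46.8 RPKM in leukemia, 60.03 and 56.9 RPKM in preleukemia and 69.2 and 57.7 RPKM in mock. Genes of common lineage markers differed. Itgam had 13.7 and 21.7 RPKM in leukemia, 37.1 and 53.2 RPKM in preleukemia, and 4.66 and 4.77 RPKM in mock. Cd3e was at 0 but for 0.0411 RPKM in preleukemia 1. Mecom had 61.7 and 71.5 RPKM in leukemia, 78.0 and 80.1 RPKM in preleukemia, and 0.774 and 0.805 RPKM in mock; reads from the vector and from the endogenous gene cannot be told apart. The values implied totals of 16921446 to 21640426 reads per library, so that 3 reads amount to 0.139 to 0.177 RPKM for a gene 1 kb long.

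RefSeq promoters (build GRCm38.p6, 250 bases before to 50 after the start site) were at hand for 7 of the 10 genes. Gm16553 had 6 listed start sites, and only the window of the first was examined. They are shown for 4 genes that differ in their course: Tdrd9 with the largest difference between leukemia and preleukemia on the log2(RPKM + 1) scale, Npy with the highest level, and Msrb3 and 1700006J14Rik, which lie on the same chromosome and were not higher in preleukemia than in mock in both libraries. Capitals mark matches, on either strand, to 1 of 7 searched motifs: GATAAG, GACAAGATA and GAAGATGAG (letters known from Evi1 binding studies), AGGAAG (an ETS core), CACGTG (an E-box), CCAAT and TATAAA. No match overlapped another.
Tdrd9 (chr12:111971309-111971608, plus strand): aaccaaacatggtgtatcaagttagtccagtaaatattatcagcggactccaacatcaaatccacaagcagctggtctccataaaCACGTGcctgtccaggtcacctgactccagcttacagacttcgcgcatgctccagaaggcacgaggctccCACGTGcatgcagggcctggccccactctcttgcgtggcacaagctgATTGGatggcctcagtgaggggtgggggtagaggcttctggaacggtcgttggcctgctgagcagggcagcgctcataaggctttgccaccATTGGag
Npy (chr6:49822460-49822759, plus strand): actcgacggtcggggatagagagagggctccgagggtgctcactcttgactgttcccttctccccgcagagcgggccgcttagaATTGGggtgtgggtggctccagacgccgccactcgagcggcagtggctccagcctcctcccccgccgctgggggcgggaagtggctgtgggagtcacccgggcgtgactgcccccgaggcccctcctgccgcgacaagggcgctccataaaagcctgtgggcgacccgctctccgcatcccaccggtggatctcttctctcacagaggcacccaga
Msrb3 (chr10:120898922-120899221, minus strand): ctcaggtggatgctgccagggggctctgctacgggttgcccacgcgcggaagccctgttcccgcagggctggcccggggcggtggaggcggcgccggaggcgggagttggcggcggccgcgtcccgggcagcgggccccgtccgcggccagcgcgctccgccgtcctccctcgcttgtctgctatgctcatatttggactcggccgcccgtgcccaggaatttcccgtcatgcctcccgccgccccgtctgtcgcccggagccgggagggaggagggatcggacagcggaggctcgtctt
1700006J14Rik (chr10:120363884-120364183, plus strand): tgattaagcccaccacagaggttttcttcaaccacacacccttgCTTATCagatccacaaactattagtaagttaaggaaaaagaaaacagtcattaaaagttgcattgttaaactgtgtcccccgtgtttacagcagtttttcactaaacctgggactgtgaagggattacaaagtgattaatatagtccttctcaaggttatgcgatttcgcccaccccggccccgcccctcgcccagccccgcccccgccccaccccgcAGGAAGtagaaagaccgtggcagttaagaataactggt
The Tdrd9 window held CACGTG at 2 places before the start site, a motif found in 7.24% of all 27025 promoters, and CCAAT at 2 places. GATAAG was found in 1 of the 7 windows, that of 1700006J14Rik, against 7.43% of all promoters. GACAAGATA and GAAGATGAG were found in 0 of the 7, against 0.126% and 0.370% of all promoters, and TATAAA in 0 of the 7, against 14.2%. AGGAAG was found in 3 of the 7 (Camkv, 1700006J14Rik and Gm16553; 35.1% of all) and CCAAT in 3 of the 7 (Tdrd9, Npy and Capn11; 37.9% of all). The windows also differed in CpG content. The ratio of observed to expected CpG was 0.926 for Msrb3, 0.714 for Camkv, 0.693 for Npy, 0.609 for 1700006J14Rik, 0.430 for Tdrd9, 0.122 for Capn11 and 0.0826 for Gm16553, against a median of 0.389 over all promoters. Hence 4 of the 7 exceeded 0.6, as did 36.4% of all promoters. These letter matches describe the windows and say nothing about binding.

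In both leukemia libraries each of the 10 genes was above the other 4 libraries, as were 14.7% of all tested genes. The choice by mock and leukemia values fixes this order against mock, though not by itself against preleukemia. Their median difference between leukemia and mock was 3.23 on the log2(RPKM + 1) scale, against -0.04 over all tested genes, and between leukemia and preleukemia 3.11, against -0.09. The difference between preleukemia and mock had a median of 0.24, against 0.05. On this scale, which shrinks ratios between low values, the genes differed more between the 2 Evi1-GFP groups than between preleukemia and mock. They were listed as nearly silent before leukemia with earlier results known, so low preleukemia values may be part of the choice. By reads, the larger ratio in Npy and Gm16553 was that of preleukemia to mock. Npy preleukemia was 141 times mock and leukemia 12.9 times preleukemia. For Gm16553, with no read in mock, these ratios were at least 10.3 (95% bound) and 5.77. In marrow cells sorted in bulk, more cells of a type and more RNA per cell cannot be told apart.

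**Figure D1:**
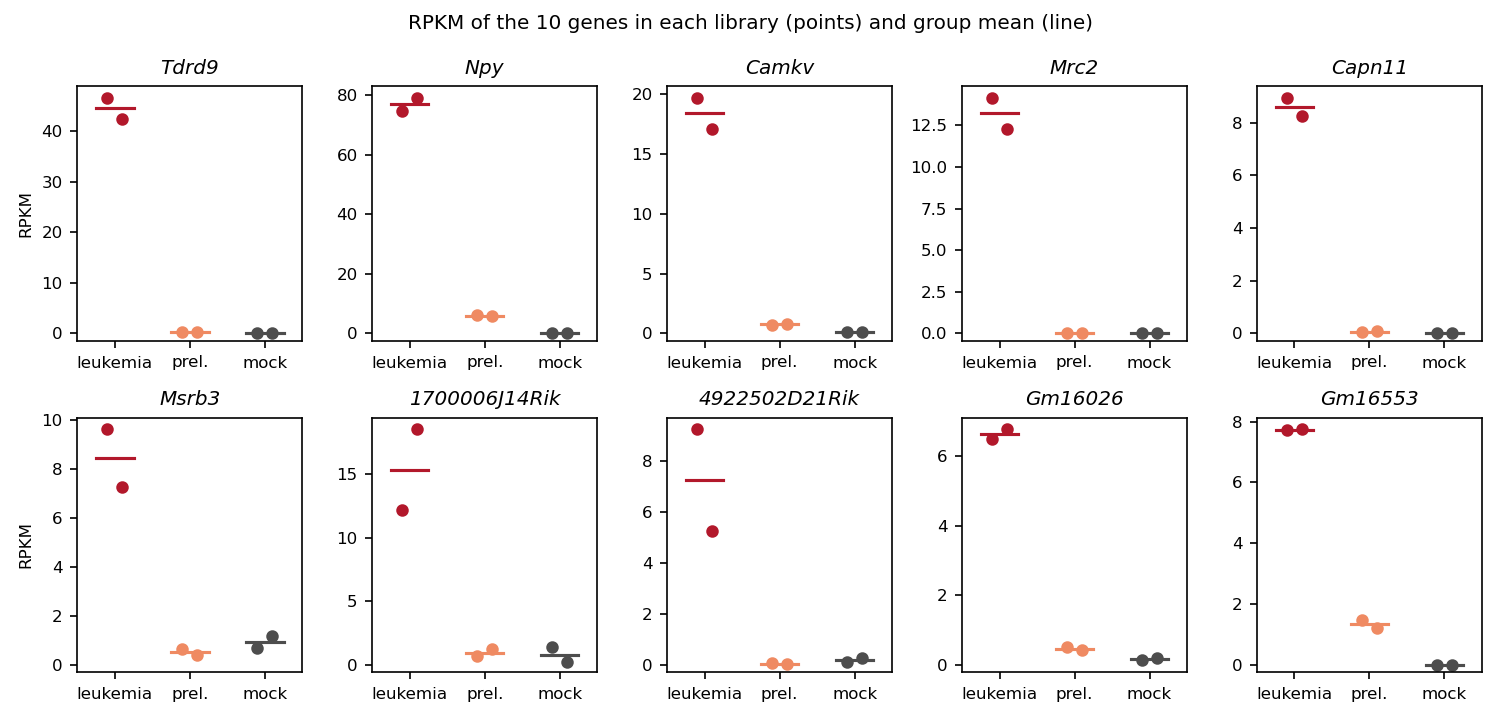
RPKM (vertical axis, its own linear scale in each panel) of the 10 genes in the leukemia, preleukemia (prel.) and mock libraries; each point is 1 library and each line the mean of 2. Both leukemia points lie above all others in every panel, and Npy and Gm16553 also have preleukemia points clearly above mock.

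Tdrd9 encodes a Tudor domain RNA helicase that, with piRNAs, silences transposons in the mouse male germ line. It lies on chr12:111971559-112068854 (GRCm38, plus strand, ENSMUSG00000054003.13). It had 46.7 and 42.5 RPKM in leukemia, 0.393 and 0.317 RPKM in preleukemia, and 0.0770 and 0.0617 RPKM in mock. The 3 groups did not overlap, and the leukemia libraries differed by a factor of 1.10. These values stood for 4714 and 4018 reads in leukemia, 32 and 33 in preleukemia, and 8 and 6 in mock. Leukemia was 127 times preleukemia (95% exact binomial interval of the pooled read ratio 99.9 to 165) and 642 times mock (382 to 1174). Such intervals cover counting error only. Its difference between leukemia and preleukemia, 5.07 on the log2(RPKM + 1) scale, had rank 1 of the 10958 tested genes, and that between leukemia and mock, 5.41, had rank 5. Preleukemia was 5.04 times mock (2.80 to 9.72) but reached only 0.796% of the leukemia mean.

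Capn11, a calpain (calcium-dependent protease) known from the testis, lies on chr17:45630204-45659325 (minus strand, ENSMUSG00000058626.16). Its level was 8.95 and 8.25 RPKM in leukemia, 0.0436 and 0.102 RPKM in preleukemia, and 0.0171 and 0 RPKM in mock. The preleukemia and mock values rested on 2, 6, 1 and 0 reads, against 509 and 439 reads in leukemia. Preleukemia lay above mock in both libraries, on few reads. Leukemia was 112 times preleukemia (56.8 to 261) and 975 times mock (175 to 38558), the last interval being wide because mock had 1 read. The preleukemia mean was 0.849% of the leukemia mean.

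Npy encodes neuropeptide Y, a secreted peptide of sympathetic nerves and brain that acts on G protein-coupled receptors. It lies on chr6:49822710-49829507 (plus strand, ENSMUSG00000029819.6). Npy had 74.8 and 79.1 RPKM in leukemia, 6.16 and 5.80 RPKM in preleukemia, and 0 and 0.0874 RPKM in mock. It was the highest of the 10 genes in leukemia and in preleukemia, with rank 380 of all 38924 rows by its leukemia mean, while mock held 1 read in all. The description as nearly silent before leukemia does not hold for it in preleukemia, where 59 and 71 reads were implied. Leukemia was 12.9 times preleukemia (10.8 to 15.6), and preleukemia was 141 times mock (24.9 to 5611). On the log2(RPKM + 1) scale Npy had rank 2 of all tested genes for leukemia minus mock (6.22), rank 5 for leukemia minus preleukemia (3.48) and rank 52 for preleukemia minus mock (2.74).

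Camkv encodes a calmodulin-binding pseudokinase associated with vesicles in neurons, and lies on chr9:107935674-107949691 (plus strand, ENSMUSG00000032936.13). Its values were 19.7 and 17.1 RPKM in leukemia, 0.721 and 0.808 RPKM in preleukemia, and 0.122 and 0.131 RPKM in mock. The groups did not overlap. The leukemia libraries differed by a factor of 1.15, a wider gap than in 73.9% of tested genes. Leukemia was 23.9 times preleukemia (19.4 to 29.9) and 146 times mock (89.7 to 256), and preleukemia was 6.10 times mock (3.56 to 11.1). The preleukemia mean was 4.16% of that in leukemia.

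Mrc2 encodes Endo180, a receptor of the mannose receptor family that takes up collagen fragments and associates with the urokinase receptor. It lies on chr11:105292643-105351139 (plus strand, ENSMUSG00000020695.14). Mrc2 had 14.2 and 12.3 RPKM in leukemia, 0.0266 and 0.0346 RPKM in preleukemia, and 0.00693 and 0 RPKM in mock. In reads this was 1985 and 1612 in leukemia, 3 and 5 in preleukemia, and 1 and 0 in mock, so that the 4 other libraries held 9 reads in all. The preleukemia mean was 0.231% of the leukemia mean, the lowest share of the 10 genes. Leukemia was 426 times preleukemia (216 to 989) and 3700 times mock (664 to 146188).

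Msrb3 encodes a methionine sulfoxide reductase of the endoplasmic reticulum, which repairs oxidised methionine, and lies on chr10:120781096-120899101 (minus strand, ENSMUSG00000051236.13). Its level was 9.63 and 7.27 RPKM in leukemia, 0.671 and 0.400 RPKM in preleukemia, and 0.697 and 1.17 RPKM in mock. Both preleukemia libraries lay below both mock libraries, though the nearest values, 0.671 and 0.697 RPKM, were close. By reads, preleukemia was 0.560 times mock (0.423 to 0.736), and leukemia was 16.4 times preleukemia (13.1 to 20.7) but only 9.15 times mock (7.76 to 10.9). That was the smallest ratio to mock among the 10 genes.

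1700006J14Rik is annotated as an antisense RNA on chr10:120364157-120384336 (plus strand, ENSMUSG00000034764.15), 396.76 kb from Msrb3. It had 12.2 and 18.5 RPKM in leukemia, 0.676 and 1.23 RPKM in preleukemia, and 1.38 and 0.257 RPKM in mock. The leukemia libraries differed by a factor of 1.52, a wider gap than in 96.8% of tested genes. Preleukemia and mock overlapped, with the mock libraries at 86 and 15 reads on either side of the preleukemia ones at 33 and 77. Leukemia was 15.4 times preleukemia (12.7 to 18.9). The gene overlaps Hmga2 on the opposite strand over 140 exon bases. Judged by its name, the library kit keeps no strand information, so reads there cannot be assigned to either gene. Hmga2, an architectural chromatin protein, took the opposite course, with 0.0914 and 0.105 RPKM in leukemia, 0.995 and 0.641 RPKM in preleukemia and 1.89 and 2.35 RPKM in mock.

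4922502D21Rik is annotated as a coding gene on chr6:129322164-129331796 (minus strand, ENSMUSG00000047720.7), within a region of C-type lectin receptor genes. It had 9.24 and 5.25 RPKM in leukemia, 0.0748 and 0.0292 RPKM in preleukemia, and 0.117 and 0.282 RPKM in mock. The leukemia libraries differed by a factor of 1.76, the widest gap of the 10 genes. Preleukemia held 2 and 1 reads, below mock with 4 and 9. Leukemia was 149 times preleukemia (50.5 to 723) and 37.2 times mock (21.5 to 70.4), and preleukemia was 0.250 times mock (0.0457 to 0.911).

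Gm16026 is annotated as a transcribed unprocessed pseudogene on chr1:85266698-85285491 (plus strand, ENSMUSG00000079455.9). It had 6.49 and 6.79 RPKM in leukemia, 0.516 and 0.427 RPKM in preleukemia, and 0.139 and 0.210 RPKM in mock. The groups did not overlap. Leukemia was 14.2 times preleukemia (11.2 to 18.3) and 38.3 times mock (26.5 to 57.5). Its level is uncertain. Matches of at least 100 bases at 90% identity or more, in transcripts of 99 other genes, cover 99.2% of its 2741-base transcript. Those to Sp110 together cover 2605 bases, the most of any gene, and the longest of them is 97.6% identical. Sp110, a nuclear body protein gene, had 43.7 and 39.9 RPKM in leukemia, 27.0 and 26.5 RPKM in preleukemia, and 18.5 and 16.3 RPKM in mock, so reads split between the copies could move Gm16026. Matches to Gm15753 together cover 319 bases, the longest at 99.4% identity. Gm15753 had 15.6 and 12.3 RPKM in leukemia, 3.004 and 4.83 RPKM in preleukemia, and 2.66 and 2.94 RPKM in mock. Both leukemia libraries were thus highest, as for Gm16026. Of the other members, 1700006J14Rik alone had such a match, over 142 bases with Hmga2. That match was 100% identical. These 2 genes share 140 exon bases on opposite strands, so it need not be a copy at another place.

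Gm16553 is annotated as an antisense RNA on chr8:3709804-3739044 (plus strand, ENSMUSG00000089956.1), and shares 146 exon bases with Clec4g on the other strand. Gm16553 had 7.71 and 7.75 RPKM in leukemia, 1.49 and 1.23 RPKM in preleukemia, and 0 in both mock libraries. Its leukemia libraries agreed more closely than those of all but 3.46% of tested genes. The preleukemia mean was 17.5% of the leukemia mean, the highest share of the 10, and with Npy it was the gene with both preleukemia libraries above 1 RPKM. Against a floor of 3 reads per mock library, 0.207 RPKM for this gene, leukemia was at least 37.3-fold and preleukemia at least 6.54-fold higher. Leukemia was 5.77 times preleukemia (4.06 to 8.40). Clec4g itself stayed at or under 0.155 RPKM in every library.

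Set side by side, the genes took different courses before leukemia. Both preleukemia libraries were above both mock libraries in 7 genes (37.2% of tested genes showed this order), below them in Msrb3 and 4922502D21Rik (25.5% of tested genes), and overlapped them in 1700006J14Rik. Of the 40 values in preleukemia and mock libraries, 33 were under 1 RPKM. The exceptions were both preleukemia values of Npy and of Gm16553, preleukemia 2 and mock 1 of 1700006J14Rik, and mock 2 of Msrb3. The preleukemia mean was under 1% of the leukemia mean in Tdrd9, Mrc2, Capn11 and 4922502D21Rik, and between 4.16% and 7.76% in Camkv, 1700006J14Rik, Msrb3, Gm16026 and Npy. By leukemia mean the order was Npy (77.0 ± 3.02 RPKM, SD, n = 2), Tdrd9 (44.6 ± 2.93), Camkv (18.4 ± 1.85), 1700006J14Rik (15.4 ± 4.49), Mrc2 (13.2 ± 1.32), Capn11 (8.60 ± 0.493), Msrb3 (8.45 ± 1.67), Gm16553 (7.73 ± 0.0254), 4922502D21Rik (7.25 ± 2.83) and Gm16026 (6.64 ± 0.210). Npy, Tdrd9 and Camkv stood apart from each other, whereas the ranges of Camkv, 1700006J14Rik and Mrc2 overlapped in turn, as did those of the last 5 genes.

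**Figure D2:**
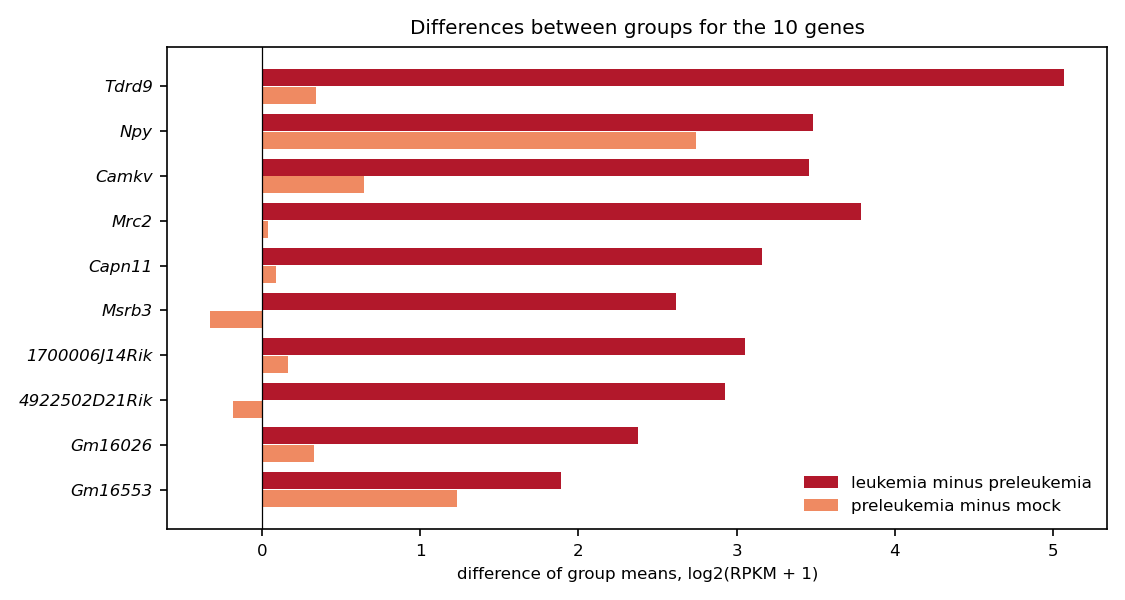
Difference of group means on the log2(RPKM + 1) scale for each of the 10 genes, leukemia minus preleukemia in dark red and preleukemia minus mock in orange. The dark bar is the longer in all 10 genes (5.07 in Tdrd9 to 1.89 in Gm16553), the orange bar is longest in Npy (2.74) and Gm16553 (1.23), and it points below 0 in Msrb3 (-0.33) and 4922502D21Rik (-0.19).

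Over the 6 libraries, the centred profile of each gene correlated with the mean of the other 9 with Pearson's r of 0.925 (Npy) to 0.999 (Camkv). This describes genes chosen for 1 shared pattern. Of the pairs, Mrc2 and Capn11 were most alike (r = 0.9997) and Npy and Msrb3 least (r = 0.834), and the gene closest to Npy was Gm16553 (r = 0.998).

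**Figure D3:**
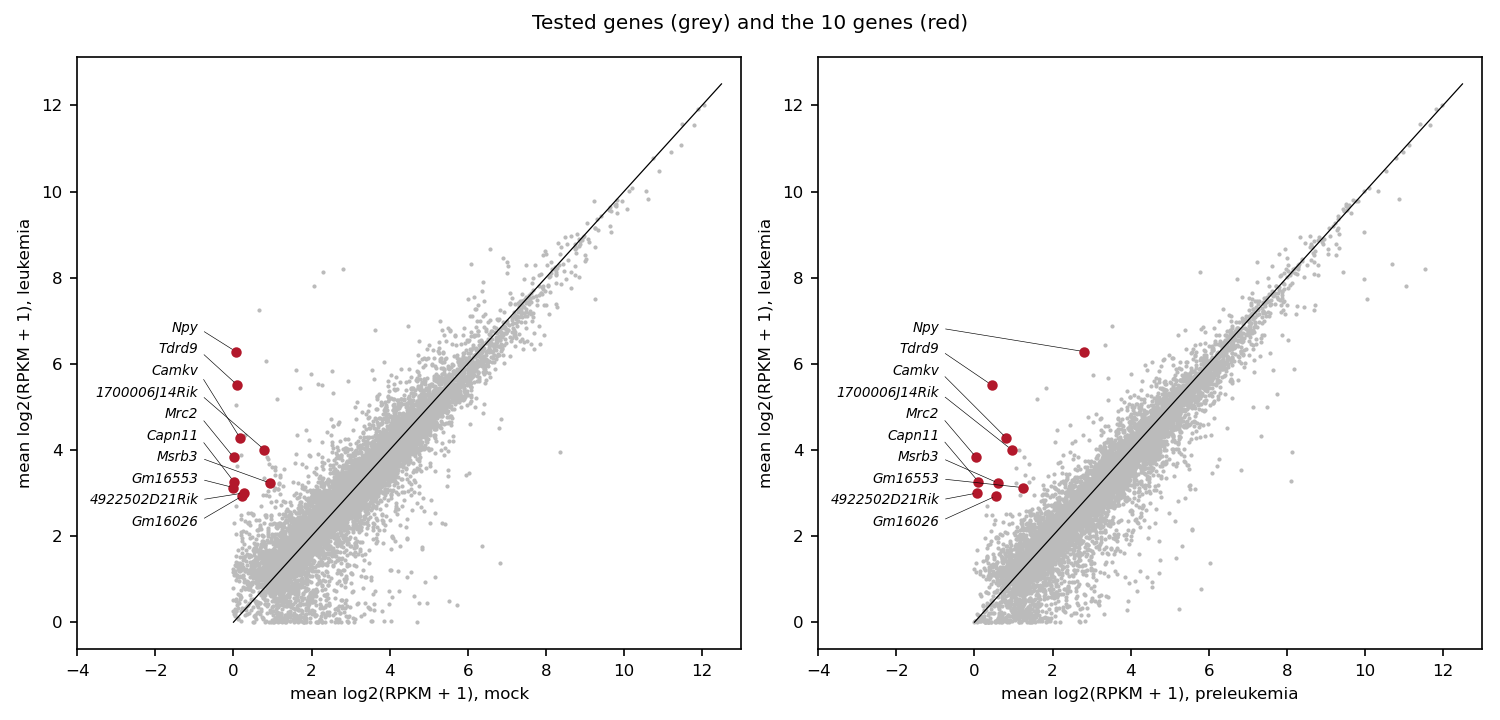
Mean log2(RPKM + 1) in leukemia (vertical) against mock (left panel) and preleukemia (right panel) for the 10958 tested genes in grey, with the 10 genes in red; the line marks equal levels. The 10 genes lie at the left edge in both panels, with Npy moved to the right against preleukemia.

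A pattern like the one that defined the genes was not confined to them. The cut-offs used here, which were not those of the choice, were a mean under 0.5 RPKM in mock and at least 5 RPKM in both leukemia libraries. This pattern was found in 13 rows of the table, of which 8 are among the 10 genes. Msrb3 and 1700006J14Rik lie just outside it, with mock means of 0.935 and 0.818 RPKM, and 4922502D21Rik just inside, with 5.25 RPKM in its lower leukemia library. The other 5 rows were Olfm4, Clec4b2, Scd3, F730016J06Rik and Chi3l1. Their preleukemia means were 22.0, 66.4, 4.98, 26.2 and 46.5 RPKM, so they were well above mock at 4 weeks already. Olfm4 and Chi3l1 encode secreted granule proteins of neutrophils. A preleukemia mean under 0.5 RPKM was found in 5 of the 13 rows, all among the 10 genes (Tdrd9, Mrc2, Capn11, 4922502D21Rik and Gm16026). Low preleukemia values may be part of the choice, so no conclusion is drawn from this split. It also depends on the cut-off. Spats2, which is not among the 10, had 6.26 and 4.88 RPKM in leukemia and thus lay just outside. It had 0.193 and 0.286 RPKM in preleukemia.

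Genes that the choice did not use were tested with limma across all 10958 genes (two-sided, adjusted p under 0.05). In leukemia versus mock 25.6% of all tested genes passed, 12.1% higher (1328 genes) and 13.5% lower (1481 genes), or 1522 and 1330 after quantile normalization. In leukemia versus preleukemia 18.3% passed, 5.27% higher (578 genes) and 13% lower (1428 genes); after quantile normalization the split was 923 higher and 964 lower, and the median of all genes moved by over 0.1, to 0.03. In preleukemia versus mock 19.5% passed, 13.5% higher (1480 genes) and 6.02% lower (660 genes), or 1173 and 988 after quantile normalization. Of 43 tested genes in 6 families of the coding members, 16 passed in leukemia versus mock (7 higher, 9 lower), 14 in leukemia versus preleukemia (3 higher, 11 lower) and 16 in preleukemia versus mock (11 higher, 5 lower). The comparisons share groups of libraries. Of the 43 genes 6 reached 1 RPKM in enough libraries only through 1 group, Rnf17, Capn3 and Pnck through leukemia and Camk1d, Mmp14 and Plau through mock, so that the filter favoured a difference in them. Without them, of 37 genes 5 were higher and 6 lower in leukemia versus mock, 2 and 11 in leukemia versus preleukemia, and 11 and 3 in preleukemia versus mock. The leukemia versus mock calls of Rnf17, Capn3, Camk1d and Mmp14 also passed when every gene above 0 was tested, and that of Plau did not.

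In the piRNA and Tudor pathway, which Tdrd9 serves in germ cells, 7 of 27 other genes were tested. Rnf17, a Tudor domain gene of germ cells, was higher at 1.35 ± 0.240 RPKM in leukemia against 0.244 ± 0.0869 RPKM in mock (SD, n = 2), a log2 difference of 0.91 (SE 0.16, limma adjusted p = 0.00939, but 0.0640 without leukemia replicate 1). Rnf17 reached 1 RPKM only in the leukemia libraries, so it could enter this test only as higher. The other 6 tested genes did not pass, and the list's median of 0.02 lay beside -0.04 for all tested genes. Against preleukemia, Tdrd7 fell to 4.27 ± 0.509 RPKM in leukemia, against 7.54 ± 0.807 RPKM in preleukemia (log2 difference -0.70, limma adjusted p = 0.0178, up to 0.145 across alternatives), and no gene rose (list median 0.05, against -0.09 for all). Of the 27 genes, Mov10l1, Mael and Asz1 had no read in any library, and 20 stayed under 1 RPKM in every library. Another 7 were over 1 RPKM in both leukemia libraries. Among them were Tdrkh, with 1.88 and 1.47 RPKM in leukemia, and Pld6, with 1.33 and 1.13 RPKM. In preleukemia versus mock Tdrd7 was the 1 gene called, and was higher.

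In the neuropeptide Y family, Pyy and Ppy (the related peptides) and Npy2r, Npy4r, Npy5r and Npy6r (receptors) were at 0 in all 6 libraries. Dpp4, a protease that clips the peptide, was the only tested gene and passed in none of the comparisons. At this depth a count of 0 still allows up to 3 reads per library.

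Of the calmodulin and calmodulin-dependent kinase genes, 11 of 16 were tested. In leukemia versus mock Camk1 and Camkk2 rose and Camk1d and Camk2b fell (list median 0.19, against -0.04 for all tested genes). Camk1d had 0.288 ± 0.00981 RPKM in leukemia against 2.10 ± 0.460 RPKM in mock (log2 difference -1.26, SE 0.17, limma adjusted p = 0.00349). It was already lower in preleukemia, with 0.167 ± 0.0451 RPKM (limma adjusted p = 0.00348). Camk1d reached 1 RPKM only in mock, so it could enter these tests only as lower. Camk1 had 5.10 ± 0.109 RPKM in leukemia against 2.70 ± 0.184 RPKM in mock (log2 difference 0.72, limma adjusted p = 0.00779), a call lost without either leukemia library (adjusted p up to 0.0673). Camk2b had 0.229 ± 0.00703 RPKM in leukemia against 1.13 ± 0.0537 RPKM in mock (log2 difference -0.79, limma adjusted p = 0.0112), lost in the same way (up to 0.0644). The Camkk2 call (log2 difference 0.51, limma adjusted p = 0.0434) was lost under 7 of 15 alternatives (up to 0.177). In leukemia versus preleukemia Camk1 rose by 0.56 (limma adjusted p = 0.0235), and 3 genes fell, among them Camk2b and Camkk1 by 0.89 and 0.82 on the log2 scale (limma adjusted p = 0.0103 and 0.0208; list median -0.19, against -0.09). The calls of Camk1, Camk2b and Camkk1 were each lost when any 1 leukemia or preleukemia library was left out. Camkk1 had been higher in preleukemia, at 3.82 ± 0.765 RPKM, than in mock, at 1.03 ± 0.160 RPKM (log2 difference 1.24, limma adjusted p = 0.00523).

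In the mannose receptor family and the collagen and urokinase pathway around Mrc2, 8 of 12 genes were tested, and 5 fell and 1 rose in leukemia versus mock (list median -0.46, against -0.04). Mmp14, a membrane collagenase, had 0.116 ± 0.113 RPKM in leukemia against 3.46 ± 1.55 RPKM in mock (log2 difference -1.96, SE 0.27, limma adjusted p = 0.00386). It passed the filter only through mock, which favoured a call as lower. Plaur, the urokinase receptor that Mrc2 associates with, had 2.40 ± 0.659 RPKM in leukemia against 33.5 ± 28.0 RPKM in mock (log2 difference -3.07, limma adjusted p = 0.00869, but 0.0557 without leukemia replicate 2). Mrc1, the macrophage mannose receptor, had 1.48 ± 0.567 RPKM in leukemia against 0.144 ± 0.050 RPKM in mock (log2 difference 1.10, limma adjusted p = 0.00941, but 0.0552 without leukemia replicate 2). P4ha1, Ctsl and Plau also fell, by 0.47, 0.45 and 0.97 on the log2 scale (limma adjusted p = 0.0231, 0.0386 and 0.0448), calls that were lost under 5, 8 and 5 of 15 alternatives. Relative to preleukemia, Ly75, Ctsb and Ctsl fell and no gene rose (list median -0.90, against -0.09). Ly75, an uptake receptor of dendritic cells, had 1.20 ± 0.298 RPKM in leukemia against 5.95 ± 1.85 RPKM in preleukemia (log2 difference -1.64, limma adjusted p = 0.00468). Ctsl, a lysosomal protease, had 4.66 ± 0.573 RPKM in leukemia against 8.53 ± 0.397 RPKM in preleukemia (log2 difference -0.76, limma adjusted p = 0.00950), a call lost without leukemia replicate 1 or either preleukemia library (up to 0.0885). Ctsb, another lysosomal protease, had 32.2 ± 1.16 RPKM in leukemia against 64.8 ± 2.96 RPKM in preleukemia (log2 difference -0.98, limma adjusted p = 0.00213). In preleukemia versus mock 3 of these genes rose (Ctsb, Ly75 and Mrc1) and 2 fell (Mmp14 and P4ha1).

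Among calpains and their inhibitor, 9 of 15 were tested. In leukemia versus mock Capn3 and Capn1 rose and Capn2 fell (list median 0.15, against -0.04). Capn3, a calpain known from muscle, had 2.12 ± 0.0381 RPKM in leukemia against 0.498 ± 0.259 RPKM in mock (log2 difference 1.07, SE 0.18, limma adjusted p = 0.00720). Capn3 reached 1 RPKM only in the leukemia libraries, so it could enter comparisons of leukemia with either group only as higher. Capn2, a catalytic subunit found in most tissues, had 1.82 ± 0.010 RPKM in leukemia against 5.83 ± 0.256 RPKM in mock (log2 difference -1.28, SE 0.15, limma adjusted p = 0.00217), and was also lower in preleukemia, with 1.94 ± 0.439 RPKM (adjusted p = 0.00363). Capn1 rose by 0.60 (limma adjusted p = 0.0194), a call lost without either leukemia library (up to 0.121). In preleukemia versus mock 3 of these genes were higher, among them Capn1 and Capns1, and Capn2 and Capn5 were lower; all these calls but that of Capn2 were lost with some library left out. Relative to preleukemia Capn5 and Capn3 rose by 1.09 and 0.92 on the log2 scale (limma adjusted p = 0.0117 and 0.0159), and Capns1 and Cast, the small subunit and the inhibitor calpastatin, fell by 0.58 and 0.51 (limma adjusted p = 0.00872 and 0.0421; list median -0.15, against -0.09). Capn5 had 6.02 ± 1.03 RPKM in leukemia, 2.32 ± 0.736 RPKM in preleukemia and 4.96 ± 0.152 RPKM in mock, and did not pass in leukemia versus mock (limma adjusted p = 0.403). The Cast call was also lost after quantile normalization, and all 4 were lost with some library left out (up to 0.240).

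All 7 tested methionine sulfoxide reductase and thioredoxin genes were above 1 RPKM in both leukemia libraries. In leukemia versus mock, Txn1 (thioredoxin) fell to 77.2 ± 3.40 RPKM in leukemia, against 115 ± 4.23 RPKM in mock (log2 difference -0.57, limma adjusted p = 0.00716, but 0.0629 without leukemia replicate 2). Msra rose by 0.42 (limma adjusted p = 0.0266), a call lost under 5 of 15 alternatives (up to 0.158; list median -0.09, against -0.04). Msrb1 and Msrb2 reduce the same form of methionine sulfoxide as Msrb3. Msrb2 had 8.12 ± 0.146 RPKM in leukemia against 6.19 ± 2.46 RPKM in mock and did not pass (limma adjusted p = 0.243, but 0.00800 without mock replicate 1). Msrb1 had 46.4 ± 9.66 RPKM in leukemia against 97.4 ± 18.3 RPKM in preleukemia (log2 difference -1.06, limma adjusted p = 0.0107), a call lost without leukemia replicate 1 or preleukemia replicate 2 (up to 0.0822). Msrb1 was higher in preleukemia than in mock (38.1 ± 1.97 RPKM, log2 difference 1.32, limma adjusted p = 0.00495). Txn1 also fell relative to preleukemia, by 0.55 (limma adjusted p = 0.0111; list median -0.23, against -0.09).

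**Figure D4:**
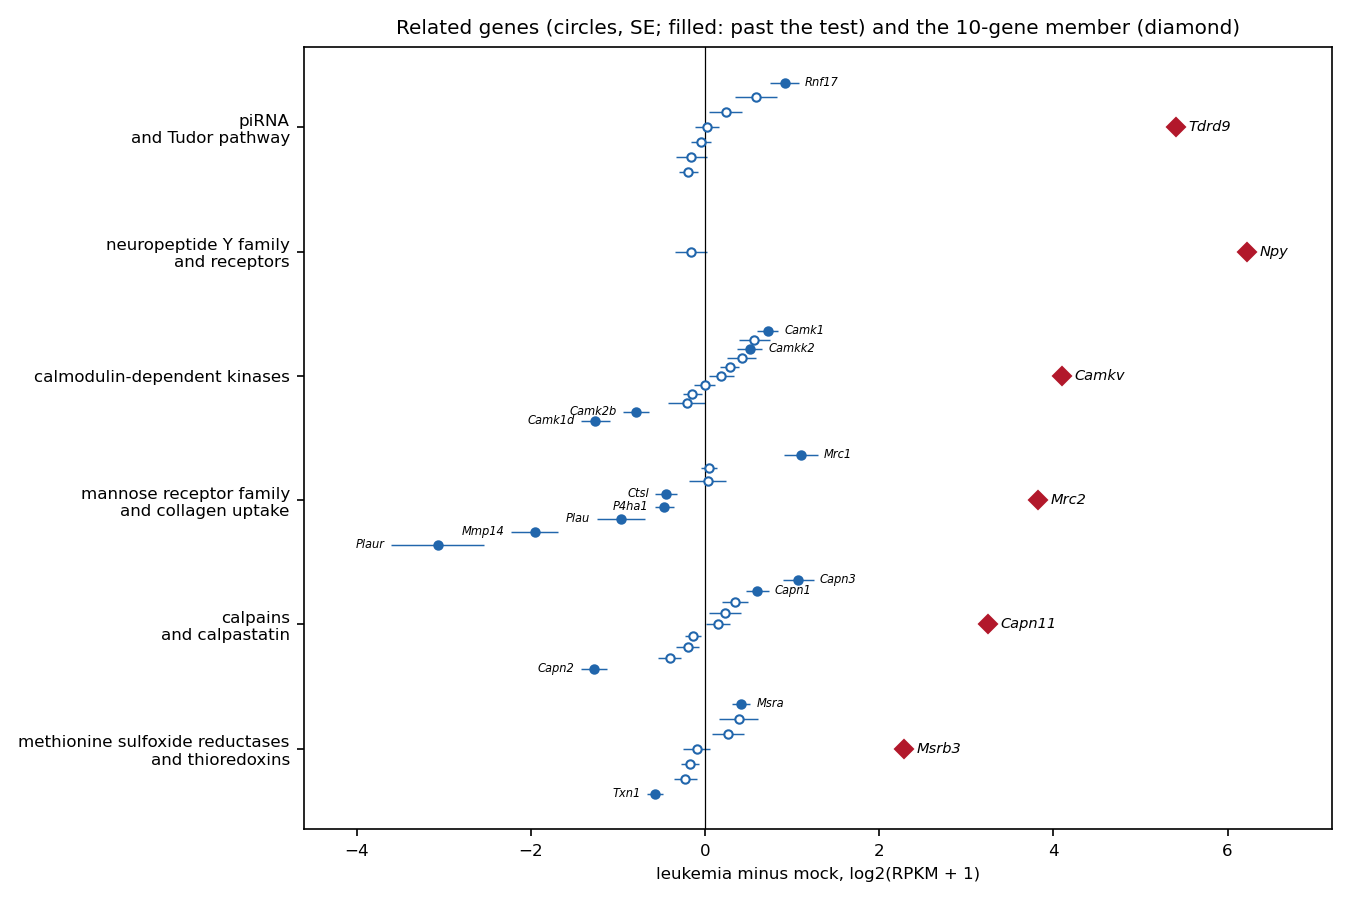
Difference between leukemia and mock on the log2(RPKM + 1) scale for the tested genes of each family (circles with standard error; filled where the limma test passed) and for the member of the 10 genes that belongs to it (diamond, not tested). The members lie between 2.29 (Msrb3) and 6.22 (Npy), and the related genes between -3.07 (Plaur) and 1.10 (Mrc1).

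The genes around the 10 were examined within 250 kb. Of 137 neighbouring rows 53 were tested, and 19 were higher (35.8%, against 12.1% of all tested genes) and 5 lower (9.43%, against 13.5%) in leukemia than in mock. Without 4 that reached 1 RPKM in enough libraries only through 1 group, 17 of 49 were higher and 4 lower. The higher genes were unevenly spread: 15 of the 19 lay near Camkv, Gm16026 and Gm16553. Near Npy no row lay within 250 kb, and its nearest expressed neighbour Mpp6 did not pass (limma adjusted p = 0.440). Near Mrc2 0 of 2 and near Capn11 0 of 9 tested neighbours were higher (with Slc35b2 and Slc29a1 lower, calls lost under 9 and 7 of 15 alternatives), and near Tdrd9 1 of 5 (Ppp1r13b, log2 difference 0.55, limma adjusted p = 0.0287).

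Around Camkv 6 of 10 tested neighbours were higher, led by Uba7, the activating enzyme for the ubiquitin-like protein Isg15. Uba7 had 49.1 ± 2.46 RPKM in leukemia against 11.0 ± 0.727 RPKM in mock (log2 difference 2.06, SE 0.10, limma adjusted p = 0.000131), and in preleukemia it had 32.8 ± 2.09 RPKM. Traip, whose start lies beyond the end of Camkv with a gap of 445 bases between the genes, did not pass (limma adjusted p = 0.182). Around Gm16026 the 3 tested neighbours were higher, but Gm2619 and A530032D15Rik reached 1 RPKM only in the leukemia libraries and could enter the test only as higher. C130026I21Rik, which overlaps it on the opposite strand with no shared exon base, had 32.5 and 37.8 RPKM in leukemia, 2.36 and 1.76 RPKM in preleukemia, and 1.15 and 1.18 RPKM in mock. Its log2 difference between leukemia and mock was 4.06 (limma adjusted p = 5.41e-05), larger than that of Gm16026 (2.70). Gm2619, which also overlaps Gm16026, and A530032D15Rik had log2 differences of 2.28 and 1.84 (limma adjusted p = 0.00118 and 0.00110). Sequence shared among these neighbours was not examined. Around Gm16553 6 of 11 were higher, among them Fcer2a, the low-affinity IgE receptor, with 1.48 ± 0.0386 RPKM in leukemia and 0.0758 ± 0.0489 RPKM in mock (log2 difference 1.21, limma adjusted p = 0.00434). Fcer2a was higher still in preleukemia, at 3.77 ± 0.898 RPKM (leukemia versus preleukemia log2 difference -0.93, limma adjusted p = 0.0147, up to 0.0901 across alternatives), whereas Gm16553 was higher in leukemia.

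Around 4922502D21Rik 3 of 8 tested neighbours were higher and 2 lower. Clec12a, a lectin receptor of myeloid cells, had 91.9 ± 8.85 RPKM in leukemia and 25.9 ± 1.33 RPKM in mock (log2 difference 1.78, limma adjusted p = 0.000242), with 108 ± 4.13 RPKM in preleukemia. Cd69, an early activation marker, had 22.9 ± 2.91 RPKM in leukemia, 4.45 ± 0.112 RPKM in preleukemia and 47.4 ± 11.2 RPKM in mock. Its leukemia versus mock difference was -1.004 (limma adjusted p = 0.00852, but 0.0624 without leukemia replicate 2). Hmga2, which overlaps 1700006J14Rik, fell by 1.504 on the log2 scale between leukemia and mock (limma adjusted p = 0.00203, at most 0.0176 under 15 alternatives); it reached 1 RPKM only in mock. Gm4473, a noncoding gene whose start lies 56 bases from that of Msrb3 in the opposite direction, had 1.23 and 0.465 RPKM in leukemia, 0 in both preleukemia libraries, and 0.0704 and 0.151 RPKM in mock.

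**Figure D5:**
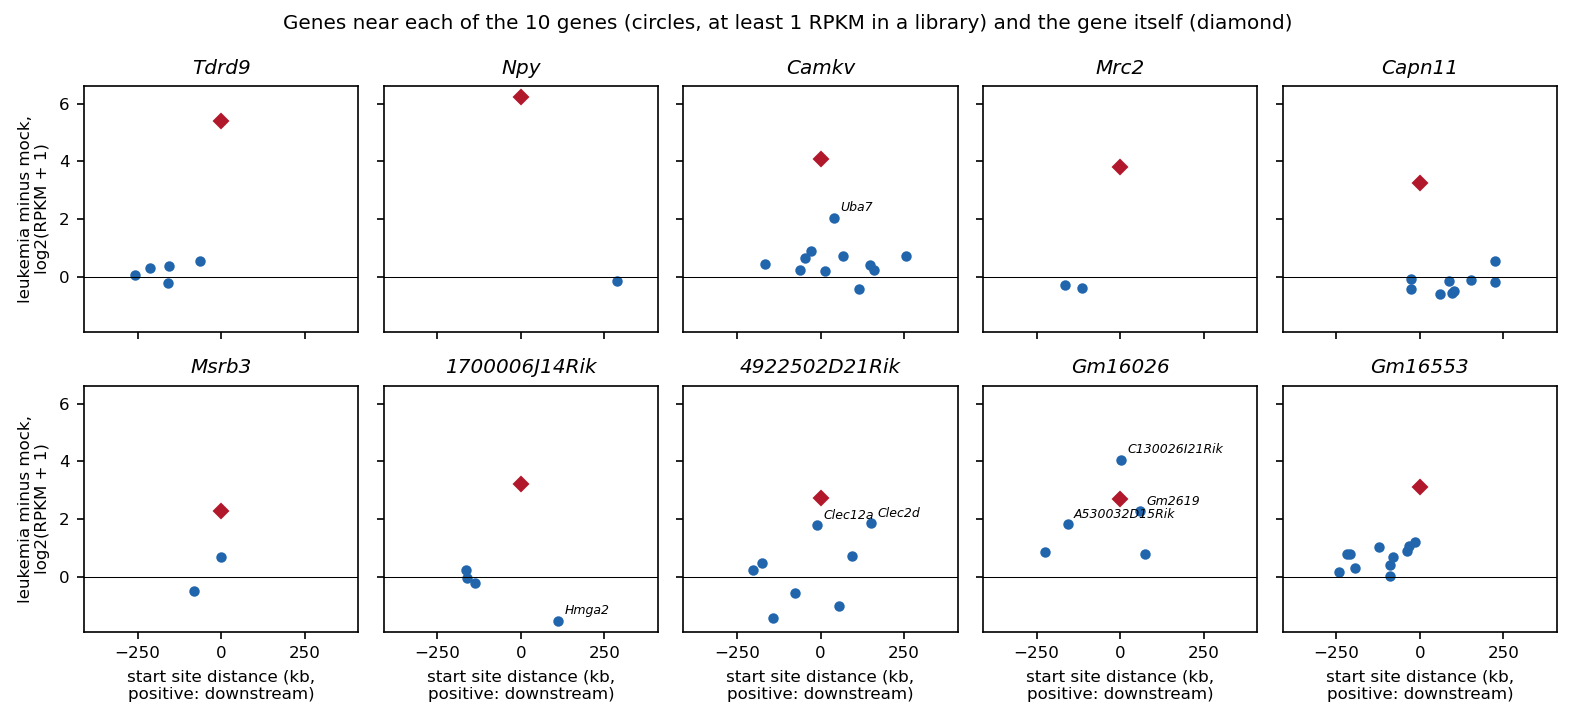
Difference between leukemia and mock on the log2(RPKM + 1) scale (vertical) for genes near each of the 10 genes that reached 1 RPKM in a library (circles), by the distance of their start sites in kb (positive is downstream); the diamond is the gene itself. Neighbours lie below the diamond except C130026I21Rik (4.06) beside Gm16026 (2.70).

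Outside the 10 genes, the 8 whose profile over the 6 libraries was most like their mean, among 62 candidates with a leukemia minus mock difference of at least 2, were Ptgir (Pearson's r = 0.998), C130026I21Rik (0.998), Spats2 (0.997), BC064078 (0.993), Ptk7 (0.991), Gdf3 (0.986), Plcd3 (0.983) and Gm2619 (0.979). The correlation is a description over 6 libraries. Ptgir, the prostacyclin receptor, had 13.9 and 12.8 RPKM in leukemia, 1.19 and 1.66 RPKM in preleukemia, and 0.777 and 0.861 RPKM in mock. Spats2 had 6.26 and 4.88 RPKM in leukemia, 0.193 and 0.286 RPKM in preleukemia, and 0.0302 and 0.0807 RPKM in mock, the levels nearest to those of the 10 genes. BC064078 lies 314.124 kb from 4922502D21Rik, and had 47.6 and 37.7 RPKM in leukemia, 2.28 and 2.86 RPKM in preleukemia, and 2.58 and 1.97 RPKM in mock.

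Markers of tissues in which the coding members are known were low. Of 15 neural markers, all were under 1 RPKM in every library and 8, among them Th and Syt1, were at 0, with sums of 0.519 to 0.598 RPKM in leukemia, 0.411 to 0.729 RPKM in preleukemia and 0.464 to 0.710 RPKM in mock. Of 14 germ cell markers, 12 were under 1 RPKM and Stra8, Tnp1 and Zp3 were at 0, with sums, mostly of Zbtb16, of 6.70 to 10.6 RPKM in leukemia, 5.43 to 7.75 RPKM in preleukemia and 5.46 to 7.02 RPKM in mock. Of 16 stromal and bone markers, 14 were under 1 RPKM and Lum was at 0, with sums, mostly of Runx2, of 7.27 to 11.1 RPKM in leukemia, 7.86 to 8.42 RPKM in preleukemia and 16.5 to 22.2 RPKM in mock. Blood cell markers moved between the groups. The 11 neutrophil markers summed to 420 to 722 RPKM in leukemia, 3864 to 8284 RPKM in preleukemia and 13.5 to 18.0 RPKM in mock. S100a8 and S100a9 made up most of each sum. These genes, Ngp, Lcn2 and Cxcr2 were higher in both leukemia libraries than in both mock libraries. Ly6g had 0 and 0.151 RPKM in leukemia against 1.51 and 0.736 RPKM in mock. Mmp8, with 0 and 0.0830 RPKM in leukemia against 0.717 and 1.39 RPKM in mock, was lower too. Ltf, Camp, Mmp9 and Retnlg overlapped between leukemia and mock. The 10 megakaryocyte markers (Gp6 at 0) summed to 3.73 to 12.7 RPKM in leukemia, 57.9 to 78.5 RPKM in preleukemia and 37.9 to 39.4 RPKM in mock, and the 11 macrophage and monocyte markers with a row (Marco at 0) to 83.8 to 115 RPKM in leukemia, 312 to 348 RPKM in preleukemia and 329 to 460 RPKM in mock. Of the last list, Ly6c2 had 5.68 and 34.8 RPKM in leukemia, 264 and 301 RPKM in preleukemia, and 277 and 390 RPKM in mock, and without it the list summed to 78.1 and 80.6 RPKM in leukemia, 47.69 and 47.7 RPKM in preleukemia, and 52.1 and 69.5 RPKM in mock. Of 11 endothelial markers, 6 were under 1 RPKM in every library, with Cldn5 at 0. The list, mostly Pecam1 and Egfl7, summed to 70.9 to 75.9 RPKM in leukemia, 33.1 to 44.2 RPKM in preleukemia and 35.8 to 36.05 RPKM in mock. Pecam1, Egfl7 and Esam were highest in leukemia, but Vwf and Tek were lowest there. Vwf had 0.444 and 0.611 RPKM in leukemia, 3.56 and 2.84 RPKM in preleukemia, and 1.03 and 0.989 RPKM in mock. The 8 erythroid markers with a row summed to 270 to 309 RPKM in leukemia, 156 to 246 RPKM in preleukemia and 148 to 344 RPKM in mock, but different genes carried the sum. Hbb-bt had 266 and 298 RPKM in leukemia, 64.1 and 44.6 RPKM in preleukemia, and 2.43 and 5.98 RPKM in mock, and the other 7 markers, led by Car1 and Car2, summed to 3.87 and 11.9 RPKM in leukemia, 181 and 112 RPKM in preleukemia, and 342 and 142 RPKM in mock. The 11 lymphoid markers, 8 of them under 1 RPKM, summed to 12.1 to 12.7 RPKM in leukemia, 14.8 to 15.4 RPKM in preleukemia and 15.1 to 21.01 RPKM in mock. The part of these differences in the levels of the 10 genes was not tested.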

How the data were processed

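RNA sequencing of 6 libraries in 3 groups was analysed from 1 deposited table of RPKM values, 1 column per library. Per the submitters' processing notes, CASAVA 1.8.2 and the build GRCm38 were used, with no role named. For the aligner, counter and annotation: not given in the sources used here. GENCODE M21 (GRCm38) gave lengths and places, and 35433 of 38924 names (91.0%) matched it singly. For Tdrd9, Camkv and 4922502D21Rik its lengths gave no whole reads. Shorter lengths (4809, 3031 and 1581 bases) were fitted so that the preleukemia and mock libraries held whole reads. The read counts and intervals of these genes rest on that fit. RPKM steps implied reads per gene and library totals (64.2% to 66.0% of values under 20 reads lay within 0.02 of a whole number), and read ratios are shown with exact binomial intervals.

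The comparisons used limma 3.58.1 (R 4.3.3) on log2(RPKM + 1) of the deposited values, a scale that understates changes of low genes. Genes with at least 1 RPKM in 2 libraries were tested, with 1 mean per group over all 6 libraries, a trended prior, two-sided tests and Benjamini-Hochberg adjustment over all genes; the fit was tested on simulated data. Python 3.11.15 did the rest. The 10 genes and all lists were chosen with earlier results of these data known. Text names the 10 genes, up to 4 called genes by smallest p in each family, overlapping and nearest neighbours, and the 8 most similar profiles. Tdrkh, Pld6, Camkk2, Plaur, Mrc1, P4ha1, Plau, Capn1, Cast, Msrb2, other neighbours, copies and markers were named after their values were seen. Results of 1 related gene and 1 marker are not reported here. Alternatives were other pseudocounts, filters, scalings and spread estimates, a fit of 4 libraries, a replicate block and each library left out.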

Additional observations from a re-analysis of the deposited data

How the results depend on the processing

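Across 15 alternatives, all differences of the 10 genes between leukemia and mock and between leukemia and preleukemia kept their sign (150 values each), and 2 of 150 between preleukemia and mock changed it, both for 1700006J14Rik (-0.30 to 0.62 on the log2 scale). A pseudocount of 0.1 widened the differences of the lowest genes, for example to 7.01 for Mrc2 in leukemia versus mock. With it, the preleukemia minus mock difference exceeded the leukemia minus preleukemia difference in Npy (5.47 against 3.66) and Gm16553 (3.86 against 2.43). The number of genes that passed moved more. A fit of the 4 libraries compared gave 1374 genes in preleukemia versus mock and 3428 in leukemia versus preleukemia, and testing every gene above 0 gave 1302 in the last comparison. With 1 library left out, 520 to 3873 genes passed in preleukemia versus mock, 1046 to 3848 in leukemia versus mock and 430 to 3449 in leukemia versus preleukemia; of the 43 related genes 6 to 22, 5 to 19 and 2 to 20 passed. The replicate numbers pair nothing in the labels, and differences within groups correlated weakly between groups (0.179, 0.0125 and 0.116). With a replicate block 2118, 2932 and 2060 genes passed (15, 16 and 15 related genes). The cause of these movements was not tested. With 2 libraries a group, levels of 0 to 9 reads per library in preleukemia and mock (Mrc2, Capn11, 4922502D21Rik) or in mock alone (Tdrd9, Camkv, Npy, Gm16553) leave their ratios no more precise than the counting intervals given.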
